A study of Homo sapiens with 2 samples.

Results

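The mitochondrial protein import machinery is described here across 2 RNA sequencing libraries of a bladder carcinoma cell line, one with an empty vector and one with an ANGPTL4 plasmid. Its genes were selected by name: rows beginning with TIMM or TOMM and a digit, and TIMMDC1, DNAJC19, GRPEL1, GRPEL2, PAM16, CHCHD4, GFER, SAMM50, MTX1, MTX2, PMPCA and PMPCB, without read-through rows and pseudogenes. This gave 36 genes in 37 rows, of 55771 gene symbols in 57773 rows. All of them except TOMM20L reached 1 RPKM (reads per kilobase of exon, scaled to library size) in at least 1 library, so that 35 of the 36 were measured. The rule itself uses names and no measured value.

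Most mitochondrial proteins are encoded in the nucleus, made in the cytosol and carried into the organelle after translation. They enter through the TOM complex of the outer membrane and are then passed on: to the TIM23 complex and its ATP-driven PAM motor for proteins with a cleavable presequence, to small TIM chaperones and the TIM22 complex for carriers, to the SAM complex for beta-barrel proteins of the outer membrane, or to the MIA disulfide relay for small cysteine-rich proteins of the intermembrane space. The mitochondrial processing peptidase then removes the presequence in the matrix.

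Both libraries came from total RNA of BFTC 905, an established human line of urothelial carcinoma with little ANGPTL4 of its own. The vector control carried pcDNA3.1-myc-His (-) A and the other library a plasmid that overexpresses ANGPTL4, a secreted inhibitor of lipoprotein lipase. Both were grown in RPMI-1640 with serum and selected as stable clones with G418, and the number of clones behind each library was not given in the sources used here. There was 1 library per group, so the values compare these libraries and not the conditions, no difference has a replicate check, and no p-value is given. In bulk RNA, fewer cells of a type and less RNA per cell cannot be told apart.

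The vector control library held 6572767 reads and the ANGPTL4 library 3233596, as recovered from the steps of the RPKM values. Reads of each gene were recovered the same way, and every interval given is an exact 95% interval from those reads, which covers counting error only. ANGPTL4 itself was at 3.92 RPKM in control cells and 91.2 RPKM with ANGPTL4. All 7 epithelial markers (KRT7, KRT8, KRT18, KRT19, EPCAM, CDH1 and GATA3) were at 13.1 RPKM or more in both. Among the fibroblast, endothelial and leukocyte markers reported here (COL1A1, COL1A2, COL3A1, DCN, LUM, CDH5, VWF, KDR, PTPRC, CD3E, LYZ and CD14), COL1A1 and CD14 alone reached 1 RPKM, and COL3A1, DCN, LUM and CD3E were at 0 in both.

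The import genes kept their order of abundance between the libraries, and most had somewhat lower values in the ANGPTL4 library. Spearman's rho of the RPKM values of the 35 measured genes between the libraries was 0.96, a description over genes that share both libraries. TOMM20, the presequence receptor of the outer membrane, was the most abundant in both, with 13.3% of the summed RPKM of these genes in control cells and 10.3% with ANGPTL4. Their RPKM summed to 588 in control cells and 494 with ANGPTL4, a ratio of 0.840. Other lists, described below, had ratios of sums near it. These were 0.842 for mitochondrial ribosomal proteins, 0.822 for SLC25 carriers, 0.850 for MICOS, 0.860 for import partners, 0.864 for MIA substrates and 0.889 for proteases. The ratio of the median measured gene was 0.910. In reads, the import genes held at least 10802 in control cells and 4356 with ANGPTL4, a ratio per library read of 0.820 (0.791 to 0.849), and of 0.855 (0.823 to 0.888) without TOMM20.

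**Figure D1:**
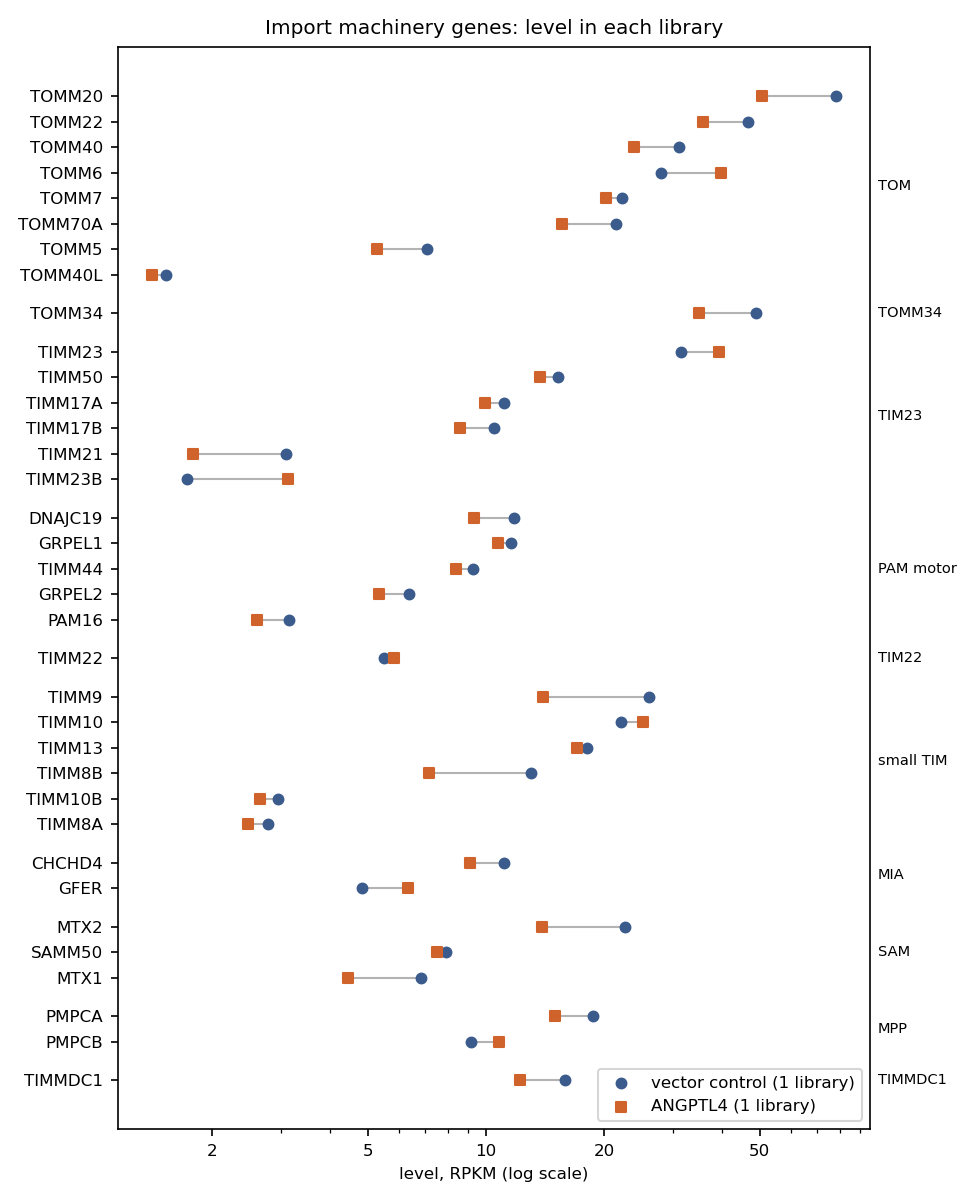
Level of each of the 35 measured import genes in RPKM on a log scale, with 1 circle for the vector control library and 1 square for the ANGPTL4 library, grouped by complex (names at the right, MPP is the processing peptidase). TOMM20 is the most abundant gene in both libraries, and the squares of TOMM6, TIMM23, TIMM23B, TIMM22, TIMM10, GFER and PMPCB lie to the right of their circles.

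Differences were counted on the log2(RPKM + 1) scale, which understates those of low genes. A lower value in the ANGPTL4 library was found for 28 of 35 measured import genes, beside 64.4% of all 11801 measured genes. No import gene differed by 2-fold in either direction, where 1.92% of all measured genes were at least 2-fold lower and 1.19% at least 2-fold higher. At least 1.5-fold lower were 4 genes, TIMM9, TIMM8B, MTX2 and TOMM20, against a background of 9.25%, and 1, TIMM23B, was at least 1.5-fold higher, against 3.08%. The median log2 ratio was -0.20, with quartiles of -0.37 and -0.08, beside -0.11 for all measured genes, whose quartiles were -0.33 and 0.09.

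The median gene was itself lower in the ANGPTL4 library, so the counts depend on scaling. As deposited, 80.0% of the measured import genes were lower. With values centred on the median gene, 24 of 35 were lower (68.6%, beside 50% of all measured genes, by construction), and with upper-quartile scaling 19 (54.3%, beside 45.9%). With a fixed sum of RPKM per library 29 were lower (82.9%, beside 80.2%), and after rescaling on genes other than the mitochondrially encoded, small RNA and ribosomal protein ones 26 (74.3%, beside 52.4%). Under all 4 scalings tried, 25 of the 35 kept the sign they had as deposited, 19 of them lower and 6 higher. The same share over all measured genes was not computed. Each scaling moves all genes in the same direction, so a kept sign reflects the size of the deposited ratio and is no separate check.

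The intervals of the ratio lay wholly below 1 for 13 import genes, against 26.8% of all measured genes, and wholly above 1 for 3 (TIMM23, TIMM23B and TOMM6), against 8.63%. Measured from the ratio of the median gene, 0.910, the intervals of 8 lay wholly below it (TOMM20, TOMM70A, TOMM40, TOMM34, TIMM9, TIMM8B, MTX1 and MTX2), against 16.2%, and those of 5 wholly above it (TOMM6, TIMM23, TIMM23B, GFER and PMPCB), against 16.3%. Such counts depend on depth, and the median import gene had 235 reads in the control where the median measured gene had 202. For 19 import genes the interval included 1, so that no difference was detectable at this depth. The higher value of TOMM6 is uncertain, because its row lies within the region of PRICKLE4.

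**Figure D2:**
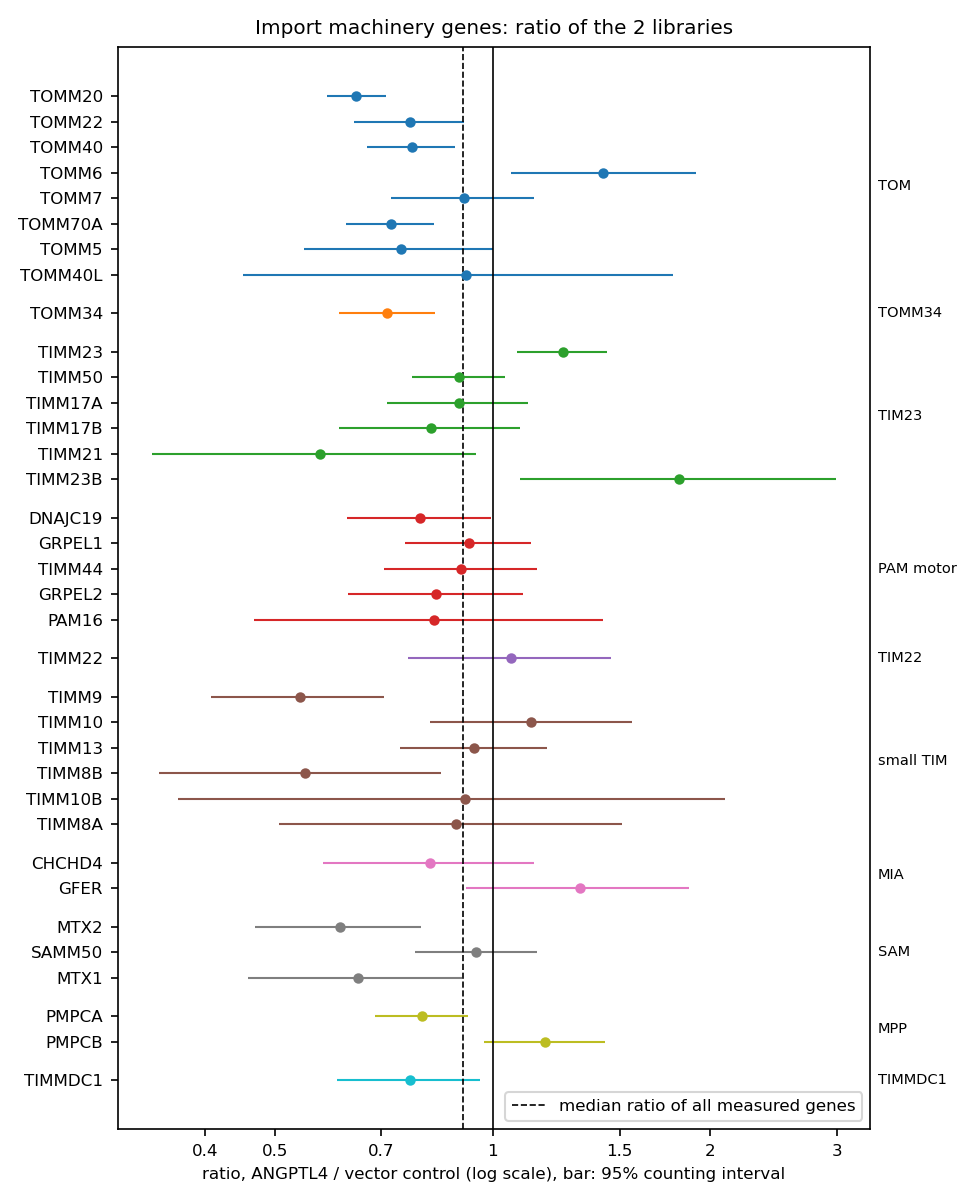
Ratio of the ANGPTL4 to the vector control library for each measured import gene on a log scale, with bars for the exact 95% counting interval, a solid line at 1 and a dashed line at 0.910, the median ratio of all measured genes. The intervals of TOMM20, TIMM9 and MTX2 lie left of both lines, and those of TOMM6, TIMM23 and TIMM23B lie right of both. TOMM6 lies within the region of PRICKLE4, so its value is uncertain.

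The receptors of the TOM complex and its pore were lower in the ANGPTL4 library under every scaling tried. TOMM20 (chromosome 1, 235272651 to 235292251, hg19, as are all gene coordinates here) was at 78.3 RPKM in control cells and 50.7 RPKM with ANGPTL4, from 1824 and 581 reads. Its ratio was 0.647 (0.589 to 0.711), the narrowest interval among these genes. TOMM70A, the receptor for carrier precursors that arrive with cytosolic chaperones, was at 21.5 and 15.6 RPKM, a ratio of 0.722 (0.626 to 0.830). TOMM22, the central receptor that joins the pores, was at 46.6 and 35.8 RPKM, a ratio of 0.767 (0.643 to 0.911). TOMM40, the beta-barrel that forms the pore, was at 31.0 and 23.9 RPKM, with a ratio of 0.772 (0.670 to 0.887). These 4 genes thus lay between 0.647 and 0.772 of their control level.

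The small TOM subunits had unlike values. TOMM5 was at 7.06 and 5.26 RPKM, a ratio of 0.746 (0.548 to 1.0), and TOMM7 at 22.2 and 20.2 RPKM, a ratio of 0.911 (0.723 to 1.14), near that of the median gene and with a sign that depended on the scaling. TOMM6, another small subunit bound to the pore, had the only higher value of the complex, 27.9 and 39.8 RPKM (117 and 82 reads), with a ratio of 1.42 (1.06 to 1.91). That value is uncertain, because the region of PRICKLE4 (chromosome 6, 41748087 to 41757879) covers all of TOMM6 (41755400 to 41757636), and PRICKLE4 went the other way, from 14.9 to 8.30 RPKM. With the reads of both rows added, 581 and 209 at the least, the ratio was 0.731 (0.621 to 0.858). How reads were divided between the overlapping rows is not given in the sources used here.

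The pore paralogue TOMM40L was low in both libraries, at 1.52 and 1.40 RPKM (31 and 14 reads), with a ratio of 0.918 (0.451 to 1.78) whose sign also depended on the scaling. TOMM20L, a paralogue of TOMM20, had no read in either library, which allows up to 0.736 RPKM in control cells and 1.5 RPKM with ANGPTL4. TOMM34, which is named for the complex but is a cytosolic co-chaperone of HSP70 and HSP90, was the second most abundant of these genes in the control, at 48.9 RPKM, and was at 34.9 RPKM with ANGPTL4, with 663 and 233 reads. Its ratio of 0.714 (0.613 to 0.831) was close to those of the receptors.

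In the TIM23 complex, which carries presequence proteins across the inner membrane, the channel subunit TIMM23 and its copy TIMM23B had higher values in the ANGPTL4 library and the other 4 genes lower ones. TIMM23 (chromosome 10, 51592080 to 51623365) was at 31.5 RPKM in control cells and 39.4 RPKM with ANGPTL4 (at least 514 and 316 reads), with a ratio of 1.25 (1.08 to 1.44). Its near-identical copy TIMM23B (chromosome 10, 51371390 to 51387768) was at 1.72 and 3.12 RPKM (36 and 32 reads), a ratio of 1.81 (1.09 to 2.99). Reads of this pair can be divided in more than 1 way, and with both added the ratio was 1.29 (1.12 to 1.47), so the higher value did not depend on that division. Both genes were higher under every scaling tried.

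The other TIM23 subunits were at or below the level of the median gene. TIMM50, the receptor of the intermembrane space, was at 15.3 and 13.7 RPKM, a ratio of 0.897 (0.773 to 1.04). Of the alternative partners of TIMM23, TIMM17A was at 11.1 and 9.95 RPKM, a ratio of 0.897 (0.713 to 1.12), and TIMM17B at 10.5 and 8.57 RPKM, a ratio of 0.820 (0.613 to 1.09). For TIMM50 and TIMM17A the log2 ratio was 0.01 after upper-quartile scaling, so their direction depended on the scaling. TIMM21, which links the complex to TOM and to the respiratory chain, was at 3.09 and 1.78 RPKM (at least 74 and 21 reads), with a ratio of 0.577 (0.337 to 0.947).

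The selected genes of the PAM motor, which pulls precursors into the matrix, had ratios close to each other, with wide intervals. These 5 genes lay between 0.793 and 0.927 of their control level. DNAJC19, a J-protein of the motor, was at 11.8 and 9.31 RPKM (277 and 108 reads), a ratio of 0.793 (0.629 to 0.993). PAM16, the J-like protein that restrains it, was at 3.13 and 2.60 RPKM (49 and 20 reads), with a ratio of 0.830 (0.467 to 1.42). TIMM44, which tethers the motor to the channel, was at 9.25 and 8.36 RPKM, a ratio of 0.903 (0.707 to 1.15). Of the nucleotide exchange factors, GRPEL1 was at 11.6 and 10.7 RPKM (318 and 145 reads), a ratio of 0.927 (0.756 to 1.13), and GRPEL2 at 6.37 and 5.32 RPKM, a ratio of 0.835 (0.631 to 1.1). Apart from DNAJC19, the intervals included 1, and the signs of GRPEL1 and TIMM44 depended on the scaling. PAM16 shares its region with the read-through row CORO7-PAM16, which was at 1.95 and 0.730 RPKM. HSPA9, the mitochondrial HSP70 at the heart of the motor and not among the selected genes, was at 103 and 108 RPKM. Its ratio of 1.05 (1.0 to 1.09) lay above the range of the 5 selected genes.

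The small TIM chaperones, which escort hydrophobic precursors through the intermembrane space, held the lowest ratios of all import genes beside a higher one. TIMM9 (chromosome 14, 58875212 to 58894332) was at 26.0 RPKM in control cells and 14.0 RPKM with ANGPTL4 (256 and 68 reads), with a ratio of 0.540 (0.407 to 0.708). TIMM10 (chromosome 11, 57295936 to 57298276), with which TIMM9 forms a mixed ring, was at 22.1 and 25.1 RPKM (113 and 63 reads), with a ratio of 1.13 (0.819 to 1.56). In the control TIMM9 was above TIMM10, and in the ANGPTL4 library below it. The ratio of TIMM9 to TIMM10 was 1.17 in control cells and 0.559 with ANGPTL4, a shift to 0.476 (0.311 to 0.733) that no scaling of the libraries can alter.

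The second chaperone ring is built from TIMM8A or TIMM8B with TIMM13. TIMM8B (chromosome 11, 111955524 to 111957522) was at 13 and 7.16 RPKM (100 and 27 reads), with a ratio of 0.549 (0.345 to 0.847). The end of its region overlaps by 26 bases that of SDHD, a membrane anchor of succinate dehydrogenase, whose row there was at 20.3 and 8.15 RPKM. Its other end overlaps by 351 bases the region of C11orf57, which was at 3.75 and 2.79 RPKM. TIMM8A, the gene of deafness-dystonia syndrome, was at 2.78 and 2.47 RPKM, a ratio of 0.889 (0.506 to 1.51). TIMM13 was at 18.1 and 17.1 RPKM, a ratio of 0.943 (0.744 to 1.19), and TIMM10B, the subunit that docks TIMM9 and TIMM10 on the inner membrane, at 2.95 and 2.65 RPKM summed over 2 rows, a ratio of 0.915 (0.367 to 2.1). The signs of TIMM13 and TIMM10B depended on the scaling. The ratio of TIMM8B to TIMM13 was 0.720 in control cells and 0.419 with ANGPTL4, a shift to 0.582 (0.345 to 0.961). TIMM22, the channel that inserts carriers, was at 5.48 and 5.81 RPKM (115 and 60 reads), a ratio of 1.06 (0.763 to 1.46), whose sign turned when both libraries were set to a fixed sum.

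The SAM complex, which folds beta-barrels such as TOMM40 into the outer membrane, was lower in its metaxins and near the median gene in its core. MTX2 (chromosome 2, 177134123 to 177202753) was at 22.6 RPKM in control cells and 13.9 RPKM with ANGPTL4 (255 and 77 reads), with a ratio of 0.614 (0.469 to 0.795). MTX1 was at 6.82 and 4.43 RPKM, a ratio of 0.650 (0.458 to 0.908). SAMM50, the barrel that does the folding, was at 7.90 and 7.50 RPKM (334 and 156 reads), a ratio of 0.949 (0.780 to 1.15), and its sign changed under 3 of 4 scalings. The pseudogene MTX1P1 was at 5.99 and 0.738 RPKM from 33 and 2 reads. Adding its reads to those of MTX1 gave a ratio of 0.553 (0.395 to 0.763). MTX3, another metaxin outside the name rule, was at 6.17 and 4.18 RPKM, a ratio of 0.678 (0.552 to 0.827).

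The MIA relay and the processing peptidase each held 1 lower and 1 higher gene. These signs held under every scaling tried, but the intervals of CHCHD4, GFER and PMPCB included 1. CHCHD4, the oxidoreductase that traps incoming cysteine-rich proteins, was at 11.1 and 9.09 RPKM (129 and 52 reads), a ratio of 0.819 (0.582 to 1.14). GFER, the sulfhydryl oxidase that reoxidises it, was at 4.81 and 6.33 RPKM (85 and 55 reads), a ratio of 1.32 (0.919 to 1.87). PMPCA, the substrate-binding subunit of the peptidase, was at 18.8 and 15 RPKM (643 and 252 reads), a ratio of 0.797 (0.686 to 0.923). PMPCB, its catalytic subunit, was at 9.16 and 10.8 RPKM (291 and 169 reads), a ratio of 1.18 (0.971 to 1.43). The ratio of PMPCA to PMPCB was 2.06 in control cells and 1.39 with ANGPTL4, a shift of 0.675 (0.528 to 0.864). That of CHCHD4 to GFER was 2.31 and 1.44, a shift of 0.623 with an interval that included 1 (0.380 to 1.02). TIMMDC1, which shares the fold of TIMM17, TIMM22 and TIMM23 but helps to assemble complex I, was at 15.9 and 12.2 RPKM (286 and 108 reads), a ratio of 0.768 (0.609 to 0.961).

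Ratios between partners within a library are free of library scaling, and 19 such pairs were compared. For 2 TOM receptors no shift against the pore was detectable at this depth: TOMM22 to TOMM40 was 1.5 in both libraries, with a shift of 0.994 (0.793 to 1.24), and TOMM70A to TOMM40 had a shift of 0.936 (0.766 to 1.14). TOMM20 to TOMM40 went from 2.53 to 2.12, a shift to 0.839 (0.708 to 0.995). Against TOMM22, the shift of TOMM20 was 0.844 (0.693 to 1.03), an interval that included 1. TIMM23 was higher against each of its partners compared, with shifts of 1.39 (1.06 to 1.83) to TIMM17A, 1.39 (1.13 to 1.71) to TIMM50 and 1.38 (1.04 to 1.84) to TIMM44. All of these shifts share the reads of TIMM23, so they are not separate checks. MTX2 shifted to 0.647 (0.463 to 0.898) of its control value against SAMM50, but against MTX1 the shift was 0.944 (0.612 to 1.47). For the isoform pairs TIMM17A to TIMM17B and GRPEL1 to GRPEL2 the shifts were 1.09 (0.758 to 1.59) and 1.11 (0.787 to 1.57). The pairs were chosen after the values were seen, and the intervals were not adjusted for their number.

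**Figure D3:**
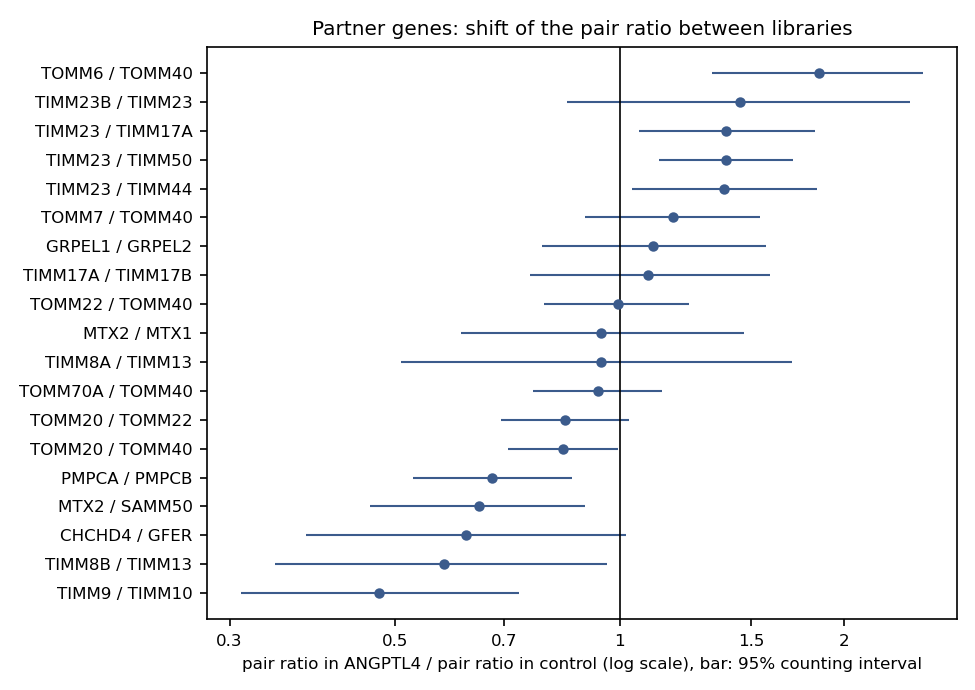
Shift of the RPKM ratio of 19 partner pairs from the vector control to the ANGPTL4 library on a log scale, with exact 95% counting intervals and a line at 1, where the balance is the same in both libraries. TIMM9 to TIMM10 has the lowest shift, 0.476, and TOMM6 to TOMM40 the highest, 1.85. The TOMM6 value is uncertain, because its row lies within the region of PRICKLE4, which went the other way.

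Promoters of the import genes were examined for letters bound by regulators of mitochondrial biogenesis, from 250 bases before to 50 after the start of each gene, from RefSeq on GRCh38.p14. Of the 36 genes, 33 matched a promoter, and GRPEL1, TIMM8B and TOMM5 did not. CCGGAAG, a core of ETS-family sites such as those of GABP, was found on either strand in 14 of the 33 (42.4%), beside 12.8% of 22199 protein-coding promoters and 10.3% of all 35116. GCGCATGCG, most of the NRF1 palindrome, was found in 3 (CHCHD4, TOMM7 and TIMM9), or 9.09%, beside 2.36% of protein-coding promoters, and no import gene had both. Among the measured genes, the median log2 ratio was -0.17 with the ETS letters (14 genes, -0.67 to 0.60) and -0.17 without them (18 genes, -0.84 to 0.33). Lower were 9 of the 14 and 16 of the 18, beside 64.4% of all measured genes. The 14 include the near-identical copies TIMM23 and TIMM23B. With the NRF1 letters the median was -0.26 (3 genes) and without them -0.15 (29 genes). None of these splits was tested. The shares of promoters with a match were not computed over measured genes alone. All of the 33 import genes but TOMM20L were measured, whereas the promoters set beside them include genes not measured here. A match is a description of the sequence and not of a bound site.

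Shown are the promoters of TOMM20 and TIMM23, which had opposite directions, and of the ring partners TIMM9 and TIMM10, whose balance shifted, with matches in capitals, 5′ to 3′ on the strand of the gene. TOMM20 (GRCh38.p14, chr1:235128788-235129087, minus strand) and TIMM23 (chr10:45972239-45972538, plus strand) both hold the ETS letters. TIMM9 (chr14:58427482-58427781, minus strand) and TIMM10 (chr11:57530705-57531004, minus strand), partners in 1 ring, differ, with NRF1 letters in the former and the ETS letters in the latter.
TOMM20: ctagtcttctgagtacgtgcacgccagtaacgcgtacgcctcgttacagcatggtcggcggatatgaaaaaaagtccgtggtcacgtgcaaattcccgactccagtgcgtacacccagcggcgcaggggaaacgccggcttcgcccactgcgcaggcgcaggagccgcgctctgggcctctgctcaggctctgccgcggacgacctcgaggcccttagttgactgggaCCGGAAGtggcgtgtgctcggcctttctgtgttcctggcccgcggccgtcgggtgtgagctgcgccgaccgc
TIMM23: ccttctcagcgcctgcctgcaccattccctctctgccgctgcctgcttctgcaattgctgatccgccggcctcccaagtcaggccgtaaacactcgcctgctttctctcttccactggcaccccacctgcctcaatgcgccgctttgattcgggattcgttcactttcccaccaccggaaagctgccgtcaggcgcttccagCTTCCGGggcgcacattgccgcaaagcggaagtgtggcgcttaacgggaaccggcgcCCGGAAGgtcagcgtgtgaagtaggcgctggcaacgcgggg
TIMM9: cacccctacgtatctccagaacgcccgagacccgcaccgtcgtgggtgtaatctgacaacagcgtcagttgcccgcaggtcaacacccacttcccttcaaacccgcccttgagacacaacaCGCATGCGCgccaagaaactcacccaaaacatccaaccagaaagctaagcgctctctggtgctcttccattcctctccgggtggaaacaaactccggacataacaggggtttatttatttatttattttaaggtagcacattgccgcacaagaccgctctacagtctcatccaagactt
TIMM10: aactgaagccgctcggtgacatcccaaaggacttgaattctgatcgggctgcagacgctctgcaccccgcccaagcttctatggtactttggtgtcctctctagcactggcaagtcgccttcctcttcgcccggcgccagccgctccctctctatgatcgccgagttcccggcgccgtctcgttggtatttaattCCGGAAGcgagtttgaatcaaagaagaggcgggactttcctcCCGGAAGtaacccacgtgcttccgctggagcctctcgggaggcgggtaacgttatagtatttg

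Exon length, base composition and abundance were set beside the ratios. Over the 35 measured genes, with exons of 637 to 6435 bases, Pearson's r of the log2 ratio with log2 exon length was -0.05 and Spearman's rho 0.03. With GC content, which ranged from 40.58% to 63.44%, r was 0.23 and rho 0.29, and with the mean log2(RPKM + 1) r was -0.17 and rho -0.24. All of these points share the same 2 libraries and their depths, so the coefficients are descriptions. Over 10805 nuclear protein-coding genes r was 0.10 for length and 0.12 for GC content.

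Genes that act beside the import machinery were counted in the same way, to be read beside the 64.4% of all measured genes that were lower and their median of -0.11. Of 11 measured import partners, 7 were lower (63.6%), with a median log2 ratio of -0.32, from HSPD1, the matrix chaperonin, at -0.69 to its co-chaperonin HSPE1 at 0.47. HSPD1 was at 237 and 147 RPKM and HSPE1 at 55.8 and 77.6 RPKM, so this pair also went opposite ways. Presequence and intermembrane space proteases were lower for 8 of 10 (80.0%), with a median of -0.08. The lowest was IMMP2L, a subunit of the inner membrane peptidase, at 2.15 and 0.818 RPKM, and LONP1, the main matrix protease, was the highest at 18.4 and 18.7 RPKM. Subunits of MICOS, which shapes the cristae, were lower for 6 of 7 (85.7%, median -0.37), with MINOS1 at 3.41 and 1.24 RPKM and CHCHD3 at 17.4 and 22.2 RPKM. Of 9 measured MIA substrates 6 were lower (66.7%, median -0.11), with CHCHD2 at 130 and 69.9 RPKM and COX19 at 4.53 and 4.97 RPKM.

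In median log2 ratio and in the share lower, the import genes lay between the mitochondrial ribosomal proteins and the SLC25 carriers. In the count at least 1.5-fold lower they lay below both. It was 4 of 35 import genes, 16 of 76 ribosomal proteins and 7 of 35 carriers, beside 9.25% of all measured genes. Mitochondrial ribosomal proteins were lower for 61 of 76 (80.3%, beside 64.4% of all measured genes), with a median log2 ratio of -0.26. Of them 4 were at least 2-fold lower and 1 at least 2-fold higher, where the shares over all measured genes were 1.92% and 1.19%. SLC25 carriers, many of whose precursors use TOMM70A and the small TIM chaperones, were lower for 25 of 35 measured (71.4%). Their median was -0.14, and 1 was at least 2-fold lower. They were listed by name alone, so a member need not be mitochondrial. The lowest and highest were MRPL13 at 6.47 and 1.54 RPKM and MRPL53 at 0.226 and 2.07 RPKM in the first family, and SLC25A17 at 3.89 and 1.09 RPKM and SLC25A35 at 0.625 and 1.27 RPKM in the second. MRPL53 rested on 2 and 9 reads. No difference between these families was tested, since 1 library per group allows no test.

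**Figure D4:**
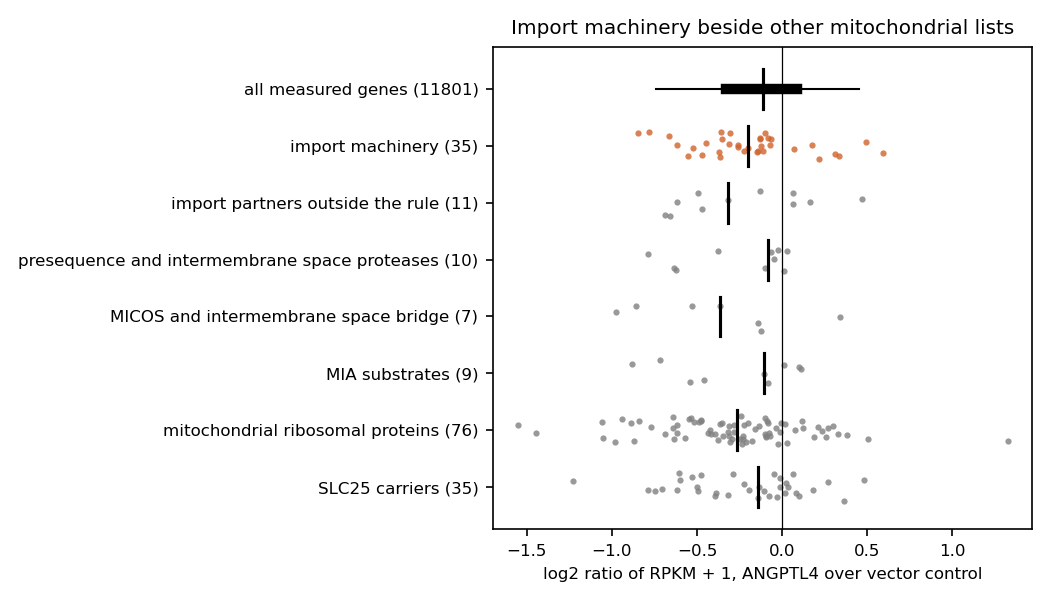
Log2 ratio of RPKM + 1, ANGPTL4 over vector control library, for each measured gene of the import machinery (35) and of 6 other lists. A bar marks each median. For all 11801 measured genes the median is drawn with the middle 50% (thick) and 90% (thin) of genes. The import genes spread from -0.84 to 0.60 around a median of -0.20, within the range of the mitochondrial ribosomal proteins.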

How the data were processed

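The authors deposited 1 table of RPKM values per library, 57773 rows each, per the file headers, on hg19 per the submitters' processing notes. Aligner, counting program, annotation and strand use are not given in the sources used here. Rows with numbered repeats of 1 symbol were summed. Depth was the smallest total at which the 13 mitochondrial genes became whole reads (tolerance 0.0001). A gene's reads came from the exon length at which both libraries gave whole reads, nearest to GENCODE release 29 and within 25% of it, which settled 81.9% of rows above 0. For the others, TIMM21, TIMM23, TIMM8A, TOMM22 and TIMM10B among them, the smallest length was used, so reads are minimum numbers.

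Log2 ratios use a pseudocount of 1, and measured genes have at least 1 RPKM in a library. By the rule for named genes, every selected gene is named with both values, genes at least 1.5-fold apart and the highest and lowest of each complex with reads and interval, and the highest and lowest of each other list. Intervals are exact at 95% for the reads used (Python 3.11.15, scipy 1.17.1), and the steps were tested on simulated data. Members, lists and alternatives were chosen with earlier results of these data known; the 19 pairs were chosen after the values were seen.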

Additional observations from a re-analysis of the deposited data

How the results depend on the processing

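The direction of the median held under the 11 alternatives, but the number of import genes at least 1.5-fold lower moved from 4: to 6 with a pseudocount of 0.1, 3 when corrected for GC content and exon length, 1 with a pseudocount of 5, 2 after centring on the median gene, 2 with upper-quartile scaling, 2 after rescaling that left out mitochondrially encoded, small RNA and ribosomal protein genes, 2 without genes that have a copy or named pseudogene (25 genes remain) and 8 with a fixed sum of RPKM per library, where 1 gene, TIMM9, was 2-fold lower. It stayed at 4 with no minimum and with a minimum of 5 RPKM. The share of all measured genes at least 1.5-fold lower, 9.25% in the main counts, was not computed for the alternatives. The median log2 ratio was -0.26 with a pseudocount of 0.1 and with a minimum of 5 RPKM (all measured genes -0.13 in both). It was -0.12 with a pseudocount of 5 (all measured genes -0.07), -0.09 centred (0.00, by construction) and -0.08 with upper-quartile scaling (0.03). With the fixed sum it was -0.32 (all measured genes -0.25), after the rescaling -0.12 (-0.02) and without copies -0.14 (-0.11). Leaving out TOMM20, an alternative chosen after seeing the data, gave a median of -0.17 and 3 such genes. Over 9 or fewer settings each, the log2 ratio ranged from -1.0 to -0.69 for TIMM9, -0.93 to -0.57 for TIMM8B, -0.82 to -0.51 for MTX2, -0.78 to -0.45 for TOMM20 and 0.27 to 0.82 for TIMM23B. No paired analysis was possible because each group holds 1 library.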

Other observations

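Of 27 pseudogene rows named after an import gene on the autosomes and chromosome X, 26 were listed at 0 in both libraries, among them those named after TIMM9, TIMM8B, TOMM22 and DNAJC19, and MTX1P1 alone had reads. The antisense row GRPEL2-AS1 held 1 read in control cells and 0 with ANGPTL4. Regions of further import genes overlap other rows with reads. Among them are TOMM34 with PABPC1L (16906 bases, 3.02 and 4.34 RPKM) and PMPCB with DNAJC2 (17038 bases, 5.56 and 4.57 RPKM). SAMM50 overlaps PARVB (11321 bases, 7.18 and 5.61 RPKM), and TOMM5 overlaps RP11-613M10.9 (4230 bases, 4.35 and 2.86 RPKM). How reads were divided there is likewise not given in the sources used here. The read-through row CORO7-PAM16 had 49 and 9 reads, a ratio of 0.373 (95% counting interval 0.161 to 0.768), while PAM16 itself had a ratio of 0.830, and their reads together gave 0.601 (0.383 to 0.918).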
